A study of Mus musculus with 80 samples.

Results

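The genes described here are the nuclear-encoded subunits of the mitochondrial respiratory chain and ATP synthase. They were taken by symbol: every row starting with Ndufa, Ndufb, Ndufc, Ndufs, Ndufv, Uqcr, Cox4 to Cox8 or Atp5, and Sdha to Sdhd, with the Ndufaf assembly factors and pseudogene symbols left out. This gave 81 of 22103 gene rows. By known role 36 belong to complex I, 4 to complex II, 8 to complex III and 16 to complex IV, and the 17 Atp5 genes are counted with complex V. Of these, Atp5s and Atp5sl are not subunits by role. All 81 are called subunit genes here for short. Liver RNA came from female Balb-C mice aged 10 to 12 weeks that were dosed by oral gavage on 7 days with PFESA-BP2, a perfluoroalkyl ether sulfonic acid also named Nafion byproduct 2. Daily doses were 0 in the control group and 0.03, 0.3, 3.0 or 6.0 mg/kg-day in the others, in 4 mice per dose with 1 library each. The control titles name DMSO and the design text names deionized water, so the vehicle that all groups share is not settled.

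Respiratory complexes I and II pass electrons from NADH and succinate to coenzyme Q, complex III passes them on to cytochrome c, and complex IV hands them to oxygen. Complexes I, III and IV pump protons across the inner mitochondrial membrane, and complex V, the ATP synthase, uses that gradient to make ATP. Most subunits are encoded in the nucleus and imported, while a few hydrophobic ones are encoded in mitochondrial DNA, and hepatocytes hold many mitochondria. The mitochondrially encoded subunits were not analysed here.

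At 6.0 mg/kg-day 7 of the 77 tested subunit genes rose and 0 fell, led by Uqcr10, a small subunit of complex III, which rose by 1.15 ± 0.22 on the log2 scale (SE). The others were Ndufa5, Ndufs1, Ndufs5 and Ndufs8 of complex I, Cox8a of complex IV and Atp5c1 of complex V. No subunit gene passed at 0.03, 0.3 or 3.0 mg/kg-day. Here rose and fell mean an adjusted p under 0.05 by the quasi-likelihood test of edgeR, over the 15197 genes that passed the filter on low counts. The 7 risers were 9.09% of the tested subunit genes, while 11.2% of all tested genes rose and 22.4% passed in either direction. Of the 77 log2 changes 73 were positive, with a median of 0.245 beside −0.018 over all tested genes. Most subunit genes have short transcripts, and all genes of 500 to 750 bases had a median of 0.316, beside 0.288 for the 29 subunit genes there. The count depended on 5 libraries that stand apart (3, 11, 15, 19 and 23): 33.8% of subunit genes rose, beside 18.4% of all genes, with a term for them in the fit, and 37.2% beside 17.8% with them left out. Those libraries were picked from measured values of all genes, the subunit genes included, so both of these fits come after that choice. With them left out, all genes of 500 to 750 bases had a median change of 0.391, beside 0.359 for the subunit genes. At 1000 to 1500 bases the medians were 0.235 and 0.367. Shares of risers by length in both fits are not given here.

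Promoter sequences are shown for 5 of the 7 risers, so that the start regions of genes that moved in the same direction can be set side by side. Each runs 5′ to 3′ on the gene's strand, 150 bases before the annotated start and 30 after it, from RefSeq on GRCm38.p6. The windows lie at chr11:4704315-4704494 (Uqcr10), chr6:24527661-24527840 (Ndufa5, 1 of 2 starts in the table), chr4:123718157-123718336 (Ndufs5), chr19:3912745-3912924 (Ndufs8) and chr19:7217587-7217766 (Cox8a), all on the minus strand. Capitals mark matches on either strand to the letters GCGC and TGCGC with 1 base of any kind between them, known as the motif of nuclear respiratory factor 1 (NRF1), or to CCGGAA, the core of motifs bound by ETS family factors such as GABPA.
Uqcr10: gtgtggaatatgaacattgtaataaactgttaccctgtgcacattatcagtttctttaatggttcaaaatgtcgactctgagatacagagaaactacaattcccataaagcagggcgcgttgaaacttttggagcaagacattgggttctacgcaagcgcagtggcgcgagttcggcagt
Ndufa5: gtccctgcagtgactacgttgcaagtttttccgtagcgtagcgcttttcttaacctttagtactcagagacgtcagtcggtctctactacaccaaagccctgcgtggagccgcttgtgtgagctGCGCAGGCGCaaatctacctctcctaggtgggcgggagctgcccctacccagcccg
Ndufs5: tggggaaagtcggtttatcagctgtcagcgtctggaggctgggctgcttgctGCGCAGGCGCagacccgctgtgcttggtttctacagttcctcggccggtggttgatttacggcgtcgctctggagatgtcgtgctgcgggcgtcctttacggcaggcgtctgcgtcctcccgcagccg
Ndufs8: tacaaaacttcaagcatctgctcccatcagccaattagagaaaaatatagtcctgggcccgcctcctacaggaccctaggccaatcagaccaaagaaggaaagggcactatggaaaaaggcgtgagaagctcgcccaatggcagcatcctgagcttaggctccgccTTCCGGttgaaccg
Cox8a: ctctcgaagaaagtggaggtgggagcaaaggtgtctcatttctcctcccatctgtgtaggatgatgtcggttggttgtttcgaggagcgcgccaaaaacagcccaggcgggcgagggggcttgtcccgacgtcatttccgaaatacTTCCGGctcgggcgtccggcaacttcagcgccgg

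Ndufa5 held the NRF1 letters 26 bases before its start and Ndufs5 held them 98 bases before it. Ndufs8 held the ETS letters starting at base 16 after the start and Cox8a 4 bases before it, whereas the Uqcr10 window held neither string. Cox8a held them again from bases 26 and 33 after its start, which run past the end of the printed window and are not in capitals. Over promoters of 300 bases (250 before and 50 after the start), 18 of 70 subunit promoters, or 25.7%, held the NRF1 letters, against 4.6% of all 32851 promoters. The ETS letters stood in 26 subunit promoters (37.1%), against 14.9% of all promoters, and at least 1 of the strings stood in 55.7%, against 18.0%. The subunit promoters also held more CG dinucleotides, with a median of 19 against 7, and both strings contain CG. The 70 promoters belong to 65 of the 81 genes. For Atp5c1, a riser whose window is not shown, the promoter of the start at chr2:10080432 held the NRF1 letters. That of its start at chr2:10080510 held neither string. These are matches of letters and not measured binding sites.

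Before the results by complex, the libraries need a description. Libraries 3, 11, 15, 19 and 23, 1 in each dose group, stand apart from the other 15 and are drawn separately throughout. In every group they are the third of 4 by library number. They were picked, with earlier results of these data known, from measured values of all genes, the subunit genes included. Their differences are therefore a description with no test. Against the mean of the other 3 libraries of their group, the median subunit gene was 0.66 lower on the log2 scale in these 5 libraries, while the median of all tested genes was 0.02 higher. Short transcripts in general were lower there: genes of 500 to 750 bases had a median of −0.54 over all genes and −0.81 over the 29 subunit genes. For genes of 1500 to 2500 bases the medians were −0.10 and −0.30. Over all genes the difference moved with transcript length (Spearman 0.53, n = 12384 genes, a description). The mean difference was negative for 68 of the 77 subunit genes. In 46 of them (59.7%) the library was the lowest of its group in all 5 groups, against 13.6% of all tested genes. Totals per library ranged from 13086755 to 21466978 counts, and levels are given as CPM, a count divided by its library's TMM-adjusted total so that libraries can be compared.

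By complex, the median was −0.78 for complex IV, −0.69 for complex I, −0.55 for complex III, −0.49 for complex II and −0.49 for complex V. Ndufb5 and Ndufb7, accessory subunits of complex I, stood lowest, each at −1.25. In the other direction Uqcrc2, a core protein of complex III, was 0.49 higher. It was the only subunit gene (1.3%) that was highest in these libraries in all 5 groups, against 12% of all tested genes. Ndufs1, the large iron-sulfur subunit of complex I, differed by 0.00 and Sdhd by −0.03. Among related lists, the mitochondrial ribosomal proteins had a median of −0.41, the assembly factors −0.22, the tricarboxylic acid cycle with pyruvate dehydrogenase −0.20, and the regulators of mitochondrial biogenesis 0.07.

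The summed level of the 81 genes was 10070, 10846, 6519 and 9405 CPM in the 6.0 mg/kg-day libraries (21, 22, 23 and 24), against 9007, 8825, 5884 and 7779 CPM in the control libraries (1, 2, 3 and 4). The groups overlapped because library 23 lay far below the rest of its group. Library 3 lay far below the other controls. Means were 9210 ± 1890 and 7874 ± 1430 CPM (SD, n = 4). Without libraries 23 and 3 the range was 9405 to 10846 CPM at 6.0 mg/kg-day, against 7779 to 9007 CPM in controls, with no overlap. The sums averaged 7841 ± 1330 CPM at 0.03 mg/kg-day, 7318 ± 686 CPM at 0.3 mg/kg-day and 8168 ± 1250 CPM at 3.0 mg/kg-day. In these bulk libraries, fewer cells of a type and less RNA per cell cannot be told apart.

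**Figure D1:**
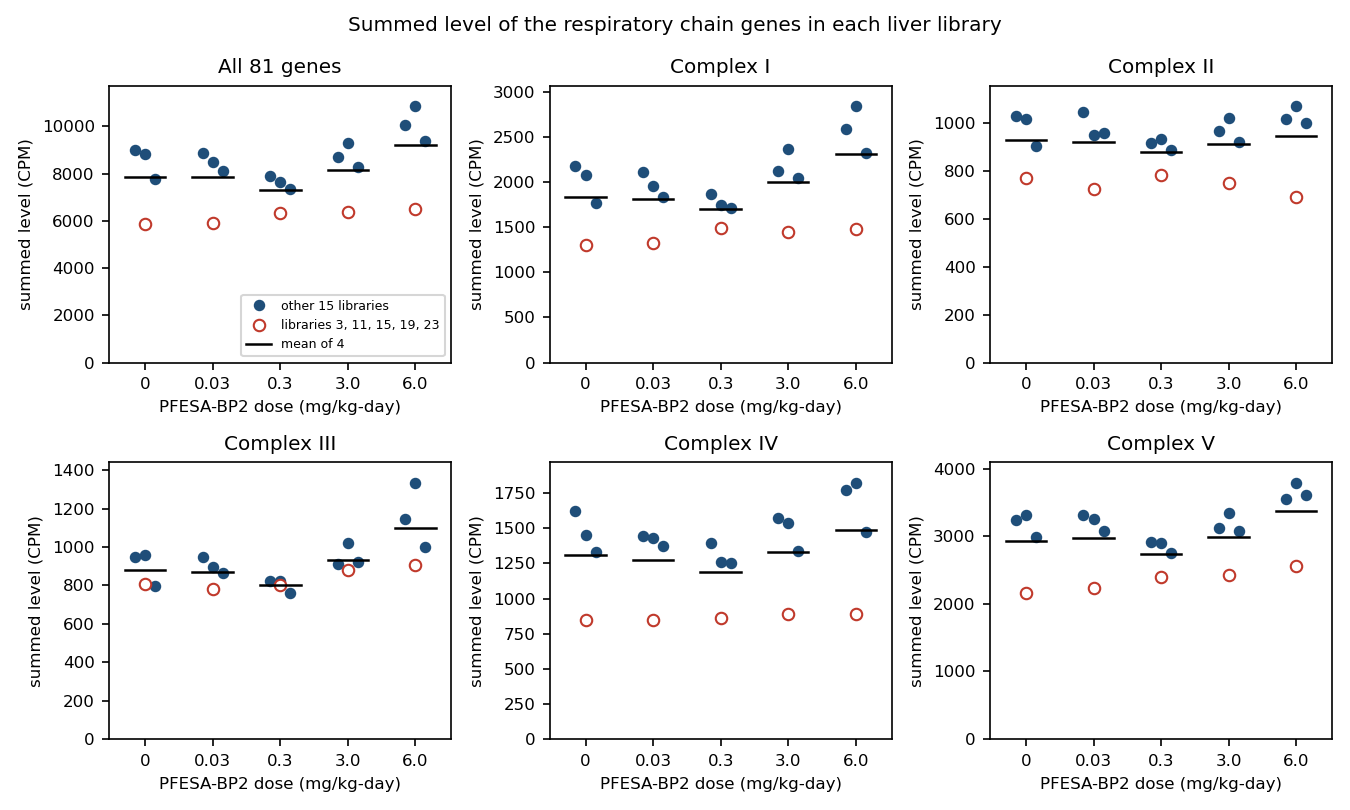
Summed CPM of all 81 genes and of each complex in every library, by dose in mg/kg-day; filled points are the other 15 libraries, open points are libraries 3, 11, 15, 19 and 23, and bars are means of 4. For all 81 genes the open points lie between 5884 and 6519 CPM at every dose, below each filled point, and the filled points at 6.0 mg/kg-day lie between 9405 and 10846 CPM.

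Complex I, the entry point for electrons from NADH, had 4 of its 36 genes rise at 6.0 mg/kg-day, beside 11.2% of all tested genes, with a median log2 change of 0.296 and 35 positive changes. With a term for the 5 libraries 13 of the 36 rose, beside 18.4% of all genes. Ndufs1, a core subunit that carries iron-sulfur clusters in the NADH-oxidizing arm, had 235.9, 231.3, 223.3 and 209.6 CPM at 6.0 mg/kg-day, against 185.4, 169.9, 175.5 and 198.0 CPM in controls. The groups did not overlap, and library 23 lay within the range of its group. Its log2 change was 0.30 ± 0.09 (SE, adjusted p = 0.0169, edgeR). The gene lies on the minus strand of chr1:63143596-63176833 (GRCm38, GENCODE M21), and its RefSeq promoter was not used here.

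Ndufs8, a second core subunit with iron-sulfur clusters, had 67.89, 68.50, 51.61 and 47.21 CPM at 6.0 mg/kg-day, against 42.31, 41.61, 38.60 and 45.84 CPM in controls. The highest control and the lowest treated library were close but did not overlap. The log2 change was 0.48 ± 0.15 (adjusted p = 0.0224, edgeR). Among the 7 core genes of complex I, Ndufs1 and Ndufs8 were the 2 that rose, and Ndufs3 (0.02 ± 0.17, adjusted p = 0.952) had the smallest change.

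Ndufa5, an accessory subunit of the matrix arm, had 66.58, 77.02, 26.10 and 41.87 CPM at 6.0 mg/kg-day, against 31.60, 34.53, 20.79 and 27.06 CPM in controls. Library 23 lay inside the control range, and the other 3 above it. The log2 change was 0.89 ± 0.28 (adjusted p = 0.0269, edgeR). Ndufs5, an accessory subunit of the membrane arm, had 17.47, 17.54, 11.58 and 18.45 CPM, against 12.10, 8.49, 11.63 and 12.96 CPM in controls, a log2 change of 0.53 ± 0.16 (adjusted p = 0.0236, edgeR). Here too library 23 alone lay inside the control range.

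Ndufa2 and Ndufb5, both accessory subunits, had the highest levels per length in complex I, with means over 20 libraries of 306 and 121 CPM per kilobase of transcript. Ndufa2 had 300.9, 336.0, 96.37 and 188.2 CPM at 6.0 mg/kg-day, against 207.1, 151.6, 87.93 and 128.4 CPM in controls. Ndufb5 had 117.1, 122.4, 42.05 and 91.83 CPM, against 95.78, 82.21, 31.08 and 73.99 CPM in controls. The groups overlapped for both, and neither change (0.68 ± 0.34 and 0.40 ± 0.38) passed, with adjusted p of 0.167 and 0.492 (edgeR).

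Complex II, which is also the succinate dehydrogenase of the tricarboxylic acid cycle, had 0 of 4 genes pass at 6.0 mg/kg-day over all 20 libraries, beside 22.4% of all tested genes. With the term 1 (Sdhb) passed, beside 37.1% of all genes. Sdhb, the iron-sulfur subunit, had 229.5, 232.9, 99.89 and 188.4 CPM at 6.0 mg/kg-day, against 171.6, 141.6, 82.94 and 145.1 CPM in controls. Sdha, the flavoprotein that oxidizes succinate, had 410.5, 418.4, 300.6 and 419.8 CPM, against 511.2, 521.2, 347.3 and 427.0 CPM in controls. Both pairs of groups overlapped, and the log2 changes were 0.47 ± 0.27 for Sdhb and −0.22 ± 0.16 for Sdha (adjusted p = 0.236 and 0.349, edgeR). Sdha was the only 1 of the 4 complex II genes with a negative value at this dose.

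Sdhd, a membrane anchor of complex II with the highest level per length of the 4 (195 CPM per kilobase), had its lowest levels at 0.3 mg/kg-day. Its levels were 248.7, 266.1, 282.3 and 254.4 CPM in controls, 238.3, 224.9, 223.7 and 188.2 CPM at 0.03 mg/kg-day, 197.6, 183.2, 196.0 and 182.6 CPM at 0.3 mg/kg-day, 260.8, 244.4, 252.3 and 236.8 CPM at 3.0 mg/kg-day, and 291.4, 320.5, 223.2 and 287.3 CPM at 6.0 mg/kg-day. All 4 libraries at 0.3 mg/kg-day lay below all controls, and it was the 1 subunit gene of 77 with lower groups that did not overlap there, against 2.97% of all tested genes. The joint test for a difference at any dose passed (adjusted p = 0.00375, edgeR). Against control alone the change at 0.3 mg/kg-day was −0.47 ± 0.11 with an adjusted p of 0.0714 in edgeR and 0.00275 in DESeq2.

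Complex III had 1 of 8 genes rise at 6.0 mg/kg-day, beside 11.2% of all tested genes, and all 8 changes were positive. With the term for the 5 libraries Uqcr11 and Uqcrc2 rose as well, beside 18.4% of all genes. Uqcr10 had 75.93, 77.26, 49.63 and 49.50 CPM in controls, 80.02, 66.97, 65.18 and 68.63 CPM at 0.03 mg/kg-day, 71.93, 68.99, 67.43 and 69.16 CPM at 0.3 mg/kg-day, 96.74, 125.6, 74.84 and 101.0 CPM at 3.0 mg/kg-day, and 153.0, 209.7, 80.82 and 116.0 CPM at 6.0 mg/kg-day. Every library at 6.0 mg/kg-day lay above every control, with library 23 the nearest to them. The adjusted p was 0.00084 at 6.0 mg/kg-day and 0.117 at 3.0 mg/kg-day, where the change was 0.66 ± 0.22 (edgeR). Against 3.0 mg/kg-day the highest dose gave 0.49 ± 0.22 (adjusted p = 0.29).

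Uqcrfs1, the Rieske iron-sulfur protein that takes electrons from coenzyme Q, passed the joint test (adjusted p = 0.048, edgeR) but no single dose. It averaged 122.3 ± 14.7 CPM in controls, 109.0 ± 6.82 at 0.03, 105.2 ± 3.69 at 0.3, 117.6 ± 4.79 at 3.0 and 133.9 ± 2.64 CPM at 6.0 mg/kg-day (SD, n = 4). Uqcr11 and Uqcrh, small subunits, had the highest levels per length in the complex at 236 and 214 CPM per kilobase. Uqcr11 had 162.1, 193.7, 62.04 and 140.7 CPM at 6.0 mg/kg-day, against 115.4, 114.8, 61.41 and 96.36 CPM in controls. Uqcrh had 127.8, 161.9, 81.68 and 92.38 CPM, against 112.6, 137.9, 84.80 and 79.01 CPM in controls. The groups overlapped for both, with changes of 0.53 ± 0.29 and 0.16 ± 0.21 (adjusted p = 0.203 and 0.625, edgeR). Reads of Uqcrh could be shared with a pseudogene row that held 15% of the pair's CPM, so its level is uncertain.

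Complex IV, cytochrome c oxidase, had 1 of its 12 tested genes rise at 6.0 mg/kg-day, beside 11.2% of all tested genes, with a median change of 0.216. With the term for the 5 libraries Cox6b1, Cox7a2 and Cox7c rose as well, beside 18.4% of all genes. Cox8a, the widely expressed form of the smallest subunit, had 64.78, 72.84, 45.85 and 61.26 CPM at 6.0 mg/kg-day, against 50.31, 49.26, 31.45 and 40.70 CPM in controls. Library 23 lay inside the control range and the other 3 above it, and the log2 change was 0.51 ± 0.15 (adjusted p = 0.0218, edgeR). Cox7c, another small subunit, had 174.1, 223.1, 67.51 and 114.0 CPM, against 121.4, 82.94, 63.64 and 59.49 CPM in controls. Its change of 0.82 ± 0.32 did not pass in edgeR (adjusted p = 0.0689) but passed in DESeq2 (0.84, adjusted p = 0.0384). Its slope over the dose ranks passed, at 0.19 ± 0.07 per rank (adjusted p = 0.036, edgeR). That slope no longer passed without library 3, 4, 11, 18, 21 or 22, with adjusted p up to 0.169.

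Cox5a and Cox6a1, with the highest levels per length of complex IV (535 and 405 CPM per kilobase), had small differences. Cox5a had 400.1, 370.8, 222.7 and 403.9 CPM at 6.0 mg/kg-day, against 439.7, 363.4, 215.5 and 367.8 CPM in controls, a log2 change of 0.01 ± 0.27 (adjusted p = 0.98, edgeR). Cox6a1 had 315.7, 266.8, 107.8 and 248.5 CPM, against 303.5, 239.0, 100.2 and 231.0 CPM in controls, a change of 0.10 ± 0.36 (adjusted p = 0.869, edgeR). Within both genes, libraries 23 and 3 were far below the rest of their groups, and the dose groups otherwise overlapped.

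Cox7a2l, which helps join complexes III and IV into supercomplexes, had 89.46, 93.46, 98.16 and 91.66 CPM at 6.0 mg/kg-day, against 79.24, 88.68, 84.13 and 88.66 CPM in controls. The groups did not overlap, but the difference was small (0.13 ± 0.11, adjusted p = 0.432, edgeR). It was 1 of 5 subunit genes, with Uqcr10, Ndufs1, Ndufs8 and Atp5c1, whose 6.0 mg/kg-day libraries all lay above all controls, or 6.49% beside 9.68% of all tested genes. Without libraries 23 and 3 there were 23, or 29.9% beside 19.1%. The isoforms used in other tissues were near 0. Cox4i2, Cox6b2, Cox7a1 and Ndufa4l2 had at most 0.522, 0.497, 0.741 and 0.481 CPM in any library and were left out by the filter on low counts. Cox6b2, known as the testis form of a small subunit, had 8, 8, 6 and 6 counts in the 6.0 mg/kg-day libraries, against 2, 1, 0 and 1 in controls, and passed when no filter was used (adjusted p = 0.0204, edgeR). Cox6a2, Cox7b2, Cox8b and Cox8c were not analysed here.

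Complex V, the ATP synthase, had 1 of 17 genes rise at 6.0 mg/kg-day, beside 11.2% of all tested genes. The median change was 0.249 and 16 changes were positive, all but that of Atp5sl, which is not a subunit by role. With the term for the 5 libraries Atp5f1, Atp5g3, Atp5j2 and Atp5k rose as well, beside 18.4% of all genes. Atp5c1, the gamma subunit that turns inside the catalytic head, had 387.1, 371.9, 316.5 and 293.2 CPM at 6.0 mg/kg-day, against 266.6, 258.6, 237.9 and 247.4 CPM in controls. The groups did not overlap, and library 23 lay between the other treated libraries. The log2 change was 0.44 ± 0.11 (adjusted p = 0.0057, edgeR). The gene lies on the minus strand of chr2:10056016-10080510 (GRCm38, GENCODE M21). Uqcr10 and Atp5c1 were the only 2 of the 7 risers that passed in all 20 fits that left out 1 library. The count of risers was 4 without library 21, 3 without library 22 and 16 without library 23. The share over all genes in these fits is not given here. Leaving out 1 library took the adjusted p up to 0.134 for Ndufa5, 0.0919 for Cox8a, 0.0887 for Ndufs8, 0.0821 for Ndufs5 and 0.0547 for Ndufs1 (edgeR).

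Atp5b, the catalytic beta subunit, and Atp5g3, a copy of the subunit that forms the proton-carrying ring, had the highest levels per length of complex V at 534 and 360 CPM per kilobase. Atp5b had 1100, 1227, 863.6 and 1329 CPM at 6.0 mg/kg-day, against 1140, 1179, 684.1 and 1007 CPM in controls. Atp5g3 had 303.9, 338.8, 229.7 and 319.4 CPM, against 298.0, 246.6, 162.7 and 190.4 CPM in controls. Both overlapped, with changes of 0.17 ± 0.19 and 0.41 ± 0.21 (adjusted p = 0.553 and 0.18, edgeR).

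Atpif1, the inhibitor of the ATP synthase under its older symbol and outside the naming rule, had 14.61, 19.36, 6.05 and 8.76 CPM at 6.0 mg/kg-day, against 10.17, 9.17, 4.84 and 8.56 CPM in controls. The groups overlapped (0.57 ± 0.27, adjusted p = 0.146, edgeR). With the term for the 5 libraries, a fit made after their choice, the adjusted p was 0.0208 (edgeR). Atp5sl carries an ATP synthase symbol but is known as an assembly factor of complex I rather than a subunit. It had 17.53, 15.07, 14.23 and 22.48 CPM at 6.0 mg/kg-day, against 26.02, 25.30, 18.03 and 31.46 CPM in controls, and its slope over the dose ranks fell, by 0.13 per rank (adjusted p = 0.0345, edgeR). No other slope of the 77 tested genes fell over all 20 libraries, and with the term that of Sdha fell as well (−0.06, adjusted p = 0.0342, edgeR). The slope of Cox7a1, with 91 counts over all libraries, fell when no filter was used (−0.47, adjusted p = 0.0222, edgeR). It also fell without libraries 3, 11, 15, 19 and 23 (−0.45, adjusted p = 0.019, edgeR). The Atp5sl slope no longer passed without library 4, 9, 20, 21, 22 or 23, with adjusted p up to 0.0959. The Atp5sl groups overlapped at 6.0 mg/kg-day, and the change of −0.54 ± 0.20 did not pass there (adjusted p = 0.0608, edgeR).

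**Figure D2:**
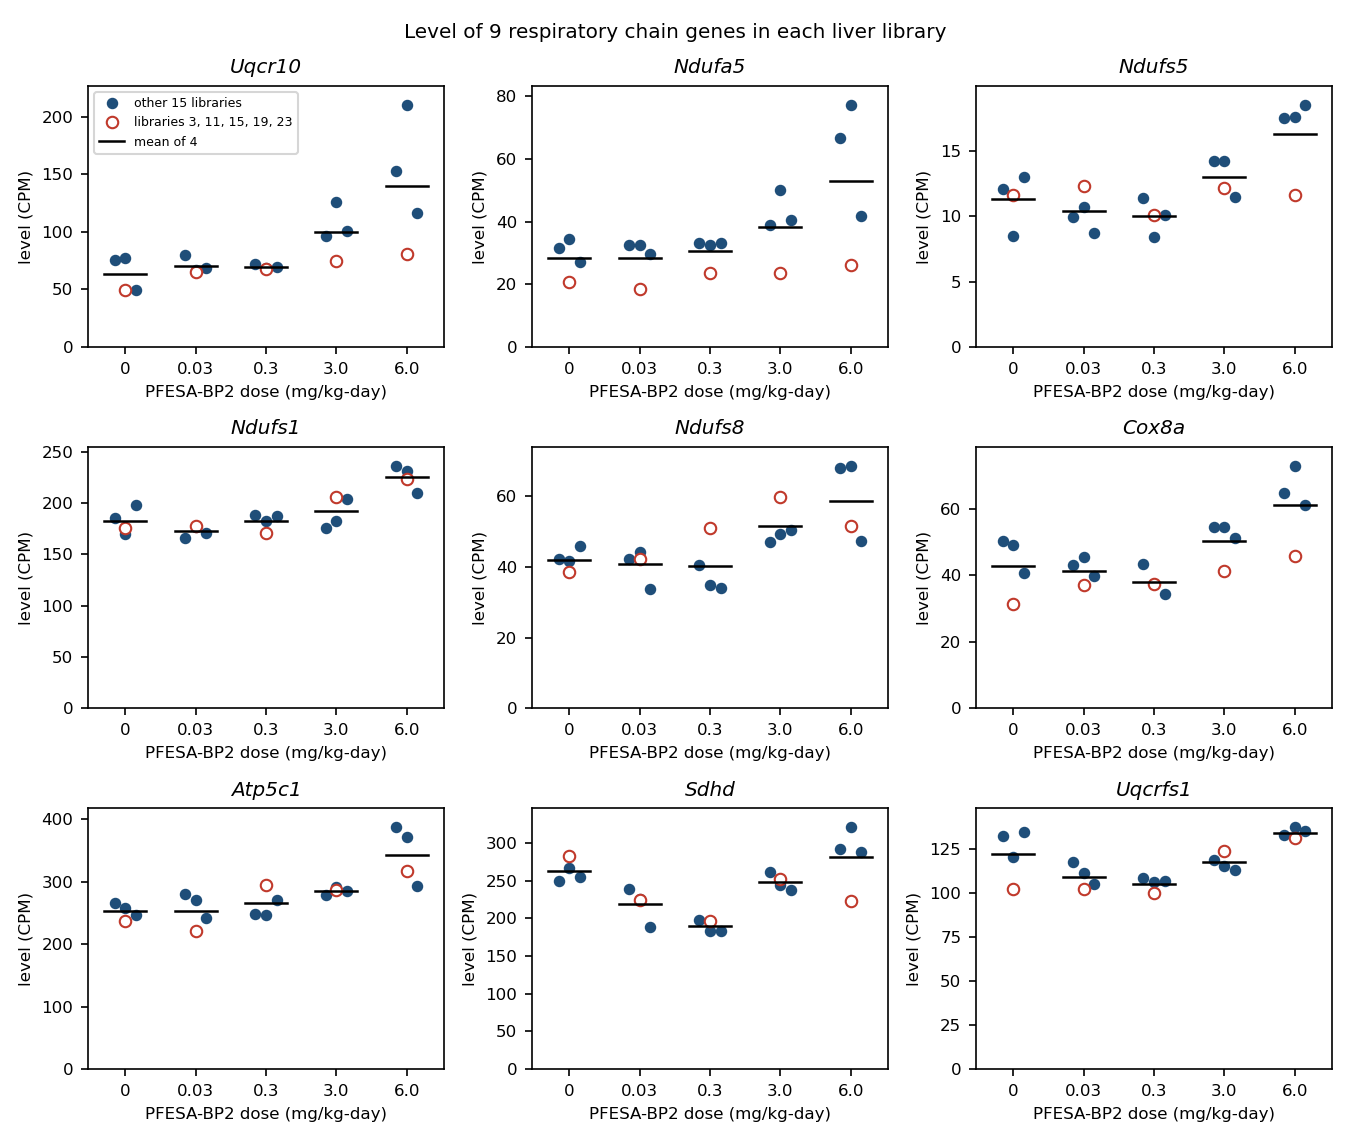
CPM of 9 genes in every library, by dose in mg/kg-day; filled points are the other 15 libraries, open points are libraries 3, 11, 15, 19 and 23, and bars are means of 4. Uqcr10 reached 209.7 CPM in library 22, and all 4 points of Sdhd at 0.3 mg/kg-day lie between 182.6 and 197.6 CPM, below its controls.

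Over the dose ranks 9 subunit genes passed, beside 26.4% of all tested genes. They were the 7 risers and Cox7c upward (13.7% of all genes) and Atp5sl downward (12.7%). The joint test for any dose called 8 subunit genes, beside 21.4% of all genes, of which Sdhd and Uqcrfs1 were not among those that passed at 6.0 mg/kg-day. Against 3.0 mg/kg-day, 0 subunit genes passed at 6.0 mg/kg-day in edgeR, beside 2.09% of all genes, while 3 had an unadjusted p under 0.05 and DESeq2 called 1 (Ndufs1), beside 4.33% of all genes. The 0 passing at 3.0 mg/kg-day stood beside 4.61% of all genes and the 0 passing at 0.3 mg/kg-day beside 0.29%. At 0.03 mg/kg-day no gene of any kind passed in edgeR (0%). At 0.03 and 3.0 mg/kg-day 1 subunit gene each had an unadjusted p under 0.05, Sdhd lower and Uqcr10 higher, and DESeq2 called 0 at both doses. The comparisons with control share the same 4 control libraries.

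At 0.3 mg/kg-day the subunit genes leaned the other way. Of the 77, 61 had a negative log2 change, with a median of −0.186 beside −0.019 over all tested genes, and 5 had an unadjusted p under 0.05, all of them lower. All genes of 500 to 750 bases had a median of −0.197, beside −0.186 for the subunit genes of that length. Medians were −0.269 for complex IV, −0.220 for complex III, −0.183 for complex I, −0.146 for complex V and 0.003 for complex II. None passed adjustment in edgeR, and DESeq2 called 1 (Sdhd), beside 1.23% of all genes. Without libraries 3, 11, 15, 19 and 23, 25 of the 77 (32.5%) had all libraries at 0.3 mg/kg-day below all controls, against 12.1% of all tested genes. In that setting all genes of 500 to 750 bases had a median change of −0.241, beside −0.206 for the subunit genes. In every other length band that held subunit genes, their median lay below that of all genes. In the edgeR fit without these libraries 3 subunit genes passed, all lower, beside 0.601% of all genes lower and 1.04% in either direction. Of these, Cox4i1, a subunit of complex IV, Ndufs3, a core subunit of complex I, and Sdhd fell by 0.56, 0.40 and 0.45 (adjusted p = 0.0409, 0.0497 and 0.0465, edgeR).

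How many subunit genes passed at 6.0 mg/kg-day differed with how the 5 libraries were handled. With a term for them in the fit, 27 of 77 subunit genes passed, 26 upward (33.8%, beside 18.4% of all genes) and Atp5sl downward (beside 18.7%), against 37.1% of all genes in either direction. Leaving them out gave 30 of 78, 29 upward (37.2%, beside 17.8% of all genes) and 1 downward (beside 16.7%), against 34.5% in either direction. All 7 risers of the fit over 20 libraries were among both. With the term, 2 subunit genes passed at 0.3 mg/kg-day (2.01% of all genes), 1 at 3.0 mg/kg-day (9.17%), 30 over the dose ranks (38.3%) and 40 in the joint test (39.7%). Without the 5 libraries 2 passed at 3.0 mg/kg-day (5.64%), 26 over the dose ranks (32.8%) and 47 in the joint test (36.5%). The genes added at 6.0 mg/kg-day include Sdhb (0.45, adjusted p = 0.00414), Uqcr11 (0.48, adjusted p = 0.0122), Ndufb3, an accessory complex I subunit (0.51, adjusted p = 0.0063), and Atp5g3 (0.42, adjusted p = 0.0075) with the term (edgeR). The 5 libraries were picked from values that included these genes, and these p-values come after that choice. The SE of Sdhb, for instance, was 0.274 over all 20 libraries and 0.116 with the term.

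**Figure D3:**
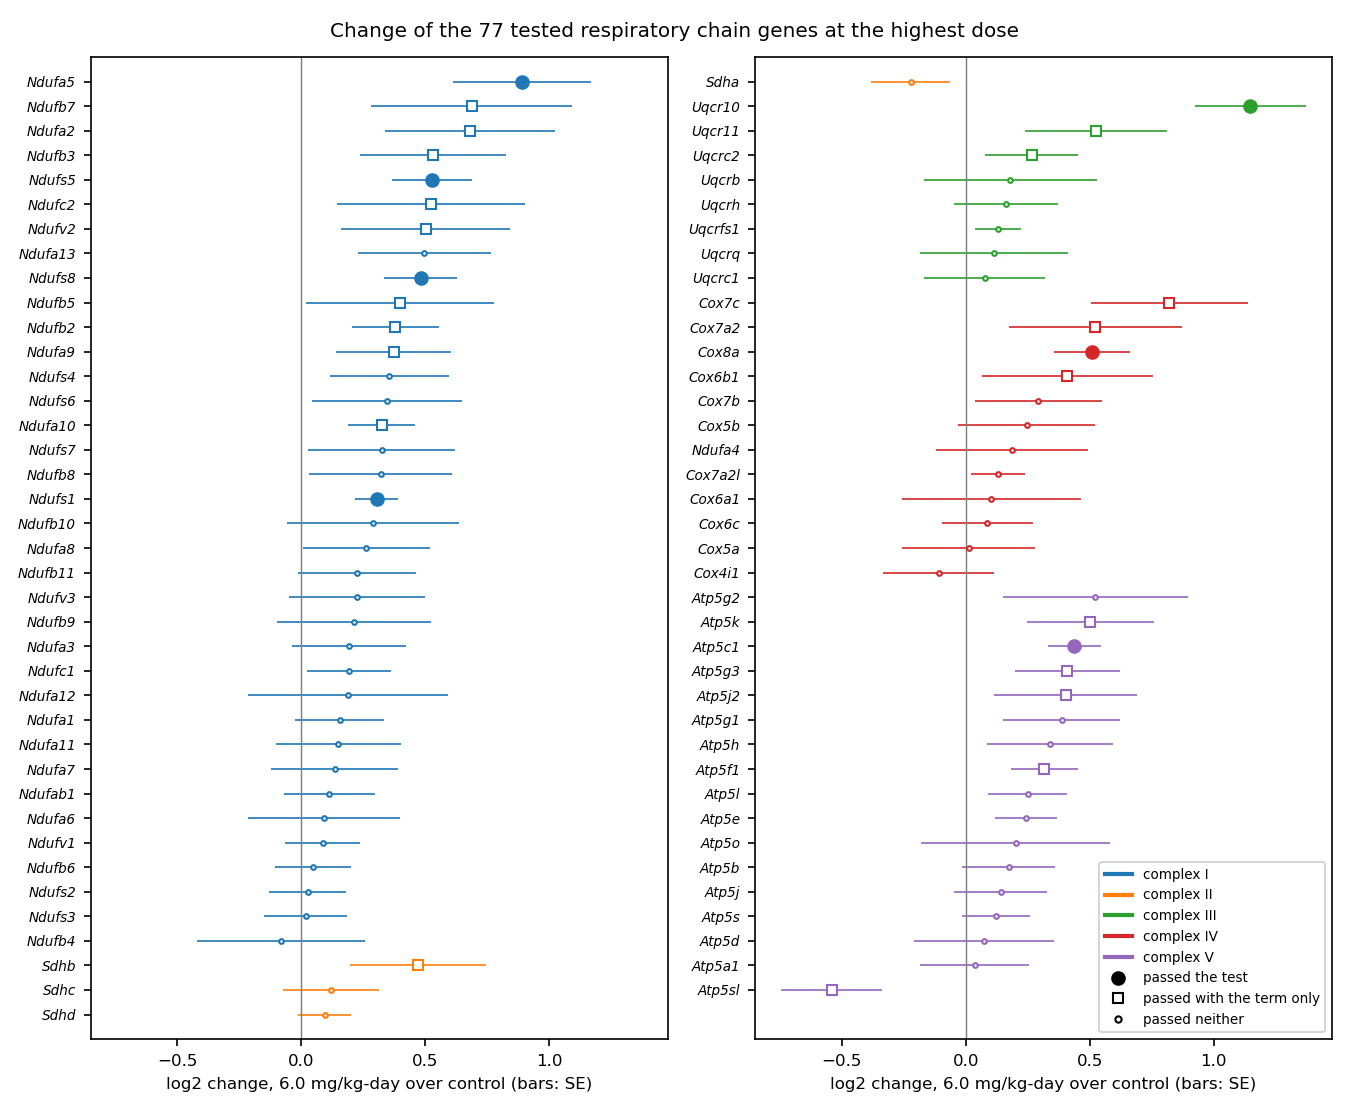
Log2 change at 6.0 mg/kg-day over control with its SE (bars) for each of the 77 tested genes, coloured by complex; large filled points passed over all 20 libraries, open squares passed only with a term for libraries 3, 11, 15, 19 and 23, and small points passed neither. Uqcr10 lies farthest to the right at 1.15, Atp5sl farthest to the left at −0.54, and 73 of the 77 points are above 0.

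The subunit genes have short transcripts, with a median of 743.5 bases beside 2641 over all protein-coding genes with an annotated length, and over all protein-coding genes the change at 6.0 mg/kg-day moved with transcript length (Spearman −0.37, n = 12384 genes, a description). All genes of 500 to 750 bases had a median change of 0.316, against 0.288 for the 29 subunit genes in that band. There 13.7% of all genes rose, beside 3 of the 29. The shares were 14.1% up to 500 bases and 18.2% at 750 to 1000 bases, beside 1 of 10 subunit genes in each. They were 18.8% beside 1 of 11 at 1000 to 1500 bases, 14.2% beside 0 of 12 at 1500 to 2500 bases, and 9.59% beside 1 of 4 at 2500 to 5000 bases. Up to 1000 bases the subunit medians lay below those of all genes, and above 1000 bases they lay above: 0.320 against 0.182 at 1000 to 1500 bases, 0.147 against 0.064 at 1500 to 2500 bases, and 0.170 against −0.119 for 4 genes at 2500 to 5000 bases. At 0.3 mg/kg-day the order of lengths was turned round, with −0.197 for all genes of 500 to 750 bases and −0.186 for the subunit genes. Each of the 7 risers was above the median of its length band: Ndufs1, with 2625.5 bases, rose by 0.30 where its band had −0.119, and Uqcr10, with 434 bases, by 1.15 where its band had 0.348. Since the 7 were picked as risers, that position is a description.

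**Figure D4:**
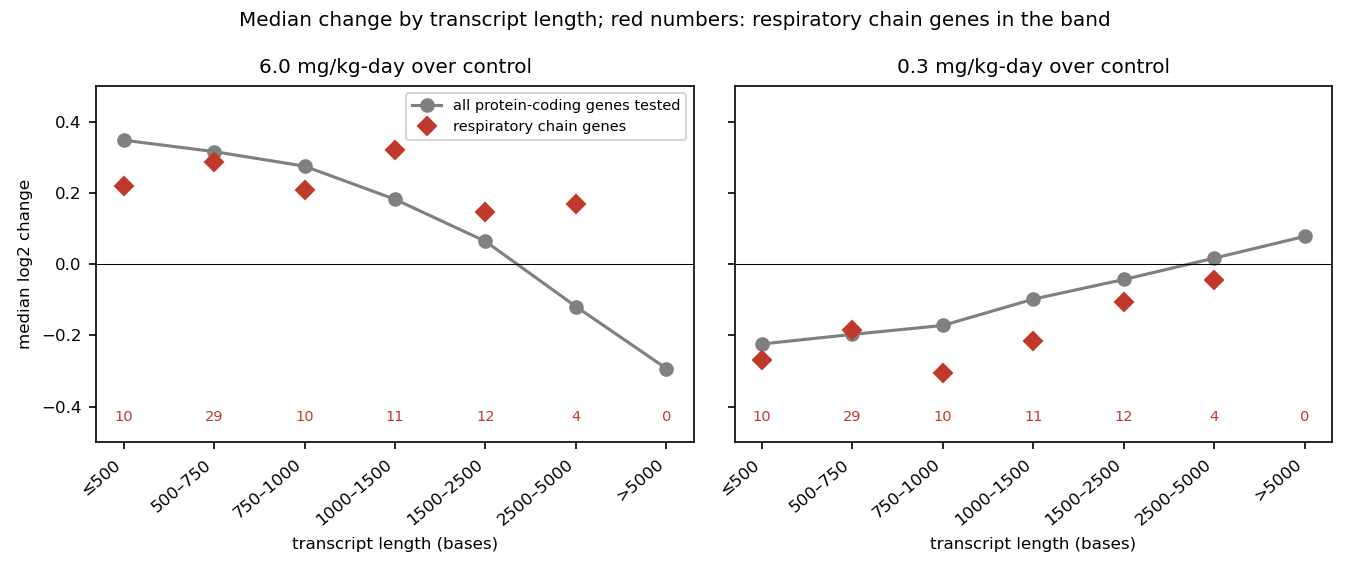
Median log2 change at 6.0 mg/kg-day (left) and 0.3 mg/kg-day (right) over control by transcript length in bases, for all tested protein-coding genes (grey, the respiratory chain genes included) and the respiratory chain genes (red, their number per band at the bottom). At 500 to 750 bases the medians are 0.316 and 0.288 on the left and −0.197 and −0.186 on the right.

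The same balance between short and long transcripts could be read in each library from genes outside the set, as the median deviation of 912 genes of up to 1000 bases minus that of 6830 genes over 2500 bases. It was 0.51, 0.77, −0.30 and 0.46 on the log2 scale at 6.0 mg/kg-day, against 0.18, 0.17, −0.55 and −0.08 in controls. The median deviation of the subunit genes was 0.47, 0.58, −0.44 and 0.28 in the same 6.0 mg/kg-day libraries, against 0.24, 0.17, −0.56 and 0.00 in controls. Libraries 21 and 22 were high and libraries 23 and 3 low in both measures. At 0.3 mg/kg-day the balance was −0.08, −0.19, −0.46 and −0.21 and the subunit median 0.01, −0.10, −0.42 and −0.18. The part of transcript length in the changes of the subunit genes was not tested.

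**Figure D5:**
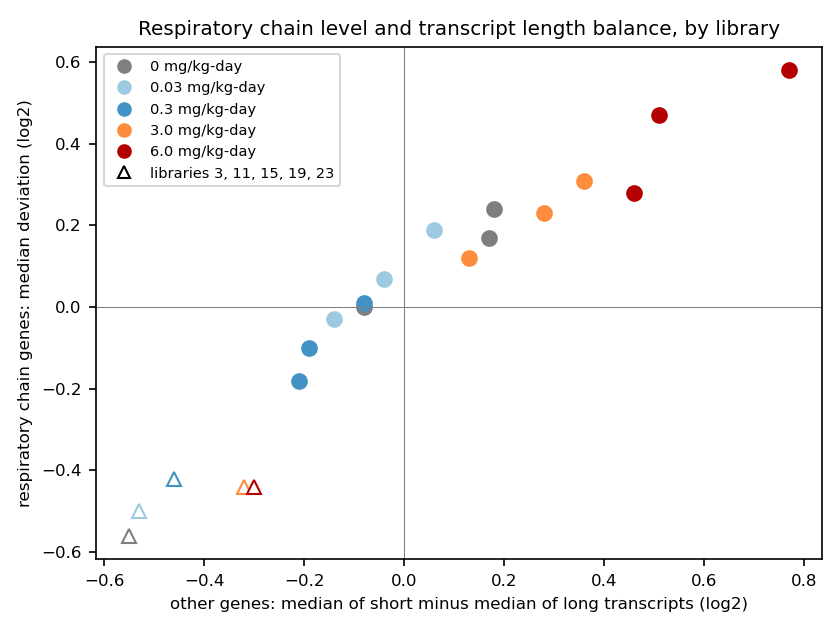
Median deviation of the respiratory chain genes (vertical, log2) against the short minus long transcript balance of all other genes (horizontal, log2), 1 point per library, coloured by dose; triangles are libraries 3, 11, 15, 19 and 23. The triangles lie between −0.42 and −0.56 on the vertical axis, and library 22 at 6.0 mg/kg-day lies farthest to the upper right at 0.77 and 0.58.

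Within the 15 other libraries the subunit genes still varied together. Over 2926 pairs of genes, the median correlation of their deviations from the group means was 0.40, with the middle of the pairs between 0.06 and 0.65, and 77.8% of pairs were positive. The genes share libraries and depth, so this describes the libraries and is not a test. No value for pairs of other genes is given here. Shared variation is therefore not shown to be a trait of the subunit genes. Hepatocyte markers stayed far above those of other cells, with summed levels of 82100 to 112000 CPM at 6.0 mg/kg-day, against 124000 to 169000 CPM in controls. Of 8 such markers 4 fell at 6.0 mg/kg-day, including albumin (−0.78, adjusted p = 0.00387, edgeR). Beside this count and those of the other cell types, 11.2% of all tested genes rose and 11.2% fell at this dose. Of 6 muscle markers 1 was analysed, at no more than 0.346 CPM. Summed Kupffer cell markers ranged over 184 to 444 CPM at 6.0 mg/kg-day, against 223 to 282 CPM in controls, with 0 of 6 passing in edgeR. Erythroid markers ranged over 207 to 447 CPM, against 405 to 694 CPM in controls, with 1 higher and 1 lower. Of 6 sinusoidal endothelial markers 1 rose and 2 fell (204 to 270 CPM, against 255 to 297 CPM in controls), and of 6 stellate cell markers 1 fell (166 to 336 CPM, against 293 to 324 CPM). The single tested adipocyte marker rose by 2.09, and the summed adipocyte markers ranged over 2.98 to 5.73 CPM, against 0.745 to 1.43 CPM in controls. Summed T and NK cell markers ranged over 1.38 to 19.6 CPM, against 1.71 to 2.81 CPM, B cell markers over 2.04 to 3.83 CPM, against 2.22 to 3.65 CPM, and cholangiocyte markers over 29.3 to 41.8 CPM, against 25.2 to 36.9 CPM, with 0 passing in each. The part of cell makeup in the subunit results was not tested.

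Other genes of mitochondrial energy supply were counted in the same way at 6.0 mg/kg-day, from lists chosen with earlier results known. The tricarboxylic acid cycle list with pyruvate dehydrogenase had 7 of 18 genes rise and 0 fall, beside 11.2% of all tested genes in each direction, with a median change of 0.38. With the term for the 5 libraries 12 rose and 2 fell, beside 18.4% and 18.7% of all genes. Its smallest p belonged to Pdha1, a catalytic subunit of pyruvate dehydrogenase, with 207 ± 16.7 CPM against 104 ± 2.43 CPM in controls (SD, n = 4; log2 change 0.99 ± 0.10, adjusted p = 3.36e-07, edgeR). Pdhb and Dlat of the same enzyme rose by 0.76 and 0.58 (adjusted p = 0.000186 and 0.000464). Of 47 assembly factors 6 rose and 0 fell, beside the same 11.2% of all genes (median 0.161; 13 rose with the term), led by Cox17, the copper chaperone of complex IV, at 29.7 ± 4.70 CPM against 16.3 ± 1.95 CPM in controls (adjusted p = 0.000346). Cox15, which makes heme A, and Nubpl, which serves iron-sulfur cluster insertion into complex I, rose by 0.55 and 0.47 (adjusted p = 0.005 and 0.0174).

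Mitochondrial ribosomal proteins, which translate the mitochondrially encoded subunits, had 5 of 78 rise and 0 fall, beside 11.2% of all genes in each direction (median 0.213). With the term 25 rose, beside 18.4% of all genes, and 28 without the 5 libraries, beside 17.8%. Over all 20 libraries Mrps6 (0.61), Mrps5 (0.36) and Mrpl50 (0.41) had the smallest p. In coenzyme Q synthesis 3 of 12 rose and 1 fell (median 0.11; 5 and 1 with the term), with Coq7 up by 0.79, Coq4 up by 0.60 and Coq10a down (−0.80). Of the 7 carriers and pores, 0 passed in edgeR over all 20 libraries (median 0.286), and Slc25a5, an ADP/ATP carrier, had the smallest p (0.53, adjusted p = 0.0684). With the term 3 rose: Slc25a5 (adjusted p = 3.67e-05) and the pores Vdac2 (adjusted p = 0.00596) and Vdac3 (adjusted p = 0.0143). Among 6 electron carriers and subunits outside the naming rule 1 rose (median 0.243), 2010107E04Rik, a small ATP synthase protein, by 0.66 (adjusted p = 0.00873). Cyc1, the cytochrome of complex III, gave 0.42 (adjusted p = 0.143). With the term 2 rose, 2010107E04Rik and Cyc1 (adjusted p = 0.00305 and 0.00259, edgeR).

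Of 16 regulators of mitochondrial biogenesis 0 rose and 3 fell, beside 11.2% of all genes in each direction, with a median of −0.066. With the term, and also without the 5 libraries, 1 rose and 4 fell. Ppargc1a, the coactivator known to drive respiratory genes, had 6.76 ± 2.86 CPM at 6.0 mg/kg-day, against 13.7 ± 2.42 CPM in controls (SD, n = 4; log2 change −1.02 ± 0.23, adjusted p = 0.00266, edgeR). Polg, the mitochondrial DNA polymerase, and Yy1, a transcription factor, gave −0.57 and −0.53 (adjusted p = 0.00381 and 0.0482).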

How the data were processed

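The authors deposited gene-level expected counts, in a table whose columns are libraries and which joins the 4 sequencing lanes of each of 20 mice (80 lane samples); the unit was read from the values, of which 58% were whole. Partek and GRCm38.p5 are named, per the submitters' processing notes. For the aligner, the annotation and strand use, the sources used here give no name. The expected counts were rounded. The filterByExpr filter kept 15197 rows (77 of the 81 subunit genes) and left out 6906, and libraries were scaled with TMM factors. All 20 libraries entered 1 edgeR quasi-likelihood fit (edgeR 4.0.16, R 4.3.3) with a mean per dose group, 15 residual degrees of freedom and a biological coefficient of variation of 0.219; the slope over dose ranks had a fit of its own. P-values were adjusted by Benjamini and Hochberg over all genes tested. SEs were derived from the log2 change and its F statistic (change over root F). DESeq2 1.42.0 and limma-voom (limma 3.58.1) were alternatives, as were RLE factors, no filter, fits of 2 groups, a term for libraries 3, 11, 15, 19 and 23, a block by library order, and leaving libraries out. Differences of single libraries are on log2(CPM + 0.5).

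Transcript length is the median over protein-coding transcripts in GENCODE M21, which named 80 of the 81 genes. The genes, lists and tests were chosen with earlier results of these data known. Values per library are given for genes that passed, the 2 genes per complex with the highest CPM per kilobase, isoforms of other tissues and regulators, the 2 with the smallest p in a complex where none passed, and 3 genes per list with the smallest p. Sdhd, Uqcrfs1, Ndufs3, Cox4i1, Uqcrc2 and Cox6b2 are also discussed for values seen in the data. Pseudogene rows left out by symbol held up to 17% of a pair's CPM (Atp5k). Fits were tested on simulated counts.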

Additional observations from a re-analysis of the deposited data

Results flagged for a closer look

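In each dose group of 4 libraries, 19 measures (the summed levels and the named genes) were examined for a lowest or highest library far from the rest, by the gap to the nearest library as a share of the group's range (Dixon's test, 95% level). Of 95 groups 5 passed, and chance alone passes about 1 group in 20. All 5 were the lowest of their group and all lay in libraries 3, 11, 15, 19 or 23. These libraries were picked from measured values of all genes, the subunit genes included, so that match is a description and no test. The measures also share genes, since the sums include the named subunit genes.

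Summed complex IV was 849 CPM in library 11 at 0.03 mg/kg-day (gap 0.891 of the range). In library 15 at 0.3 mg/kg-day, Ndufa5 had 23.54 CPM (0.911) and Sdhb 110.7 CPM (0.960). In library 23 at 6.0 mg/kg-day, Ndufs5 had 11.58 CPM (0.857) and Sdha 300.6 CPM (0.922). What sets these libraries apart was not tested.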

How the results depend on the processing

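The libraries share no replicate numbers between groups, so the labels give no pairing. A replicate block by the order of library numbers within each group, added after seeing the data, called 5 at 0.3, 1 at 3.0 and 29 at 6.0 mg/kg-day, 29 over the dose ranks and 40 jointly. With a term for libraries 3, 11, 15, 19 and 23, subunit genes passing numbered 2 at 0.3, 1 at 3.0 and 27 at 6.0 mg/kg-day, 30 over the dose ranks and 40 in the joint test. Leaving these libraries out gave 3, 2, 30, 26 and 47 for the same comparisons, against 0, 0, 7, 9 and 8 over all 20 libraries. DESeq2 called 1 at 0.3 mg/kg-day and 1 for 6.0 against 3.0 mg/kg-day. It also called 8 at 6.0 mg/kg-day, 10 over the dose ranks and 12 jointly, beside 25%, 28.9% and 27.5% of all genes. A fit of the 6.0 mg/kg-day and control libraries alone called 1 (Uqcr10). Leaving out 1 library of the compared groups at a time gave 0 to 0 at 0.03, 0.3 and 3.0 mg/kg-day, and leaving out library 23, which enters the shared estimate of spread, gave 1 at 0.3 (Sdhd, adjusted p = 0.027) and 1 at 3.0 mg/kg-day (Uqcr10, adjusted p = 0.0414, edgeR). Leaving out 1 library at a time gave 3 to 16 at 6.0 mg/kg-day, 0 to 1 for 6.0 against 3.0 mg/kg-day, 7 to 17 over the dose ranks and 3 to 15 jointly. The highest of these came without library 23, and the joint count was 4 without library 21 and 3 without library 22. Genes whose groups did not overlap numbered 23 higher at 6.0 and 25 lower at 0.3 mg/kg-day without the 5 libraries, an alternative chosen after seeing the data, against 5 and 1 with them. The 7 risers kept a positive change at 6.0 mg/kg-day in these alternatives; the near-0 value of Ndufs3 at that dose was 0.02 over all 20 libraries and −0.03 without the 5. Calls at 6.0 mg/kg-day shifted over all genes too: 22.4% with all 20 libraries, 37.1% with the term and 34.5% without the 5. The share over all genes is not given for the replicate block, the fit of 2 groups or the fits without 1 library. Those counts therefore do not set the subunit genes apart from other genes. The cause of these shifts was not tested. Depth limits Cox4i2, Cox6b2, Cox7a1 and Ndufa4l2, which had 46 to 91 counts over all libraries.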
